A study of Mus musculus with 8 samples.

Results

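Of the 23332 rows in the deposited table, 6577 carried a row number below 6000000 and no gene symbol in the platform table. These criteria use no measured value, though the class was chosen with earlier results of these data known. Its members are called the low-numbered unnamed rows here. Their numbers ran from 4305140 to 5617578, while the rows with 1 gene symbol ran from 6747308 to 7023908, and 0 rows with a symbol lay below the limit. The platform table listed 0 of the 6577 rows, so no gene, position or sequence is attached to them here. Whether such a row stands for a transcript cluster or for another unit of the array is not stated by the labels or the platform table. They were set against 14996 rows with 1 gene symbol, 740 other unnamed rows with high numbers and 1019 rows with several symbols.

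The samples were exosomes from serum-free medium that B16F0 cells had conditioned for 24 h (n = 4), and B16F0 cells kept for 24 h without serum (n = 4). B16F0 is an established mouse melanoma line that makes pigment, and both groups derive from it without any further treatment. Total RNA of each sample was made into cDNA and hybridised to 1 Affymetrix mouse exon array. Nothing in the labels says whether the 4 samples of a group were separate cultures, and p-values then cover only the scatter among these samples, which could be technical. The labels used here give no method of exosome isolation.

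Exosomes are small vesicles that form inside endosomes and are released when these fuse with the cell surface, and their RNA need not mirror that of the cell in proportion. Exon arrays place short probes along the known and predicted exons of each gene and combine them into 1 value per gene. Arrays of this type also carry control probe sets, some for background and some for introns and exons of widely expressed genes. The sources used here do not say whether any of the low-numbered unnamed rows is of such a kind.

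Values were log2 levels, and a level is relative to the RNA put on an array. Fewer vesicles with a transcript and less of it per vesicle therefore cannot be told apart. As a stand-in for background, 843 rows of odour, pheromone and taste receptor genes were used, and a row counted as above background where all 4 arrays of the group exceeded their 95th percentile. That threshold was 6.49 ± 0.06 in exosomes and 5.74 ± 0.03 in cells (mean ± SD, n = 4 each). All 6 pigment cell markers tested (Tyr, Dct, Tyrp1, Pmel, Mitf and Sox10) were above background in exosomes and in cells, with mean levels of 7.85 to 12.4 in exosomes and 11.6 to 13.8 in cells. Of 7 measured markers of leukocytes, epithelium, endothelium and liver, 0 were above background in exosomes and 0 in cells. Precision is limited by the number of arrays, 4 per group.

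Among the 6577 rows, 3 carried on all 8 arrays exactly the deposited values of a named row. They were singled out after their values were seen, and they were the only rows of the whole table with such a double. Row 4504661 doubled Golga7, which encodes a Golgi protein that helps attach fatty acids to Ras. It had levels of 10.66, 10.50, 10.73 and 10.78 in exosomes, against 10.47, 10.45, 10.26 and 10.47 in cells. The exosome values all lay above the cell values, by a narrow margin. The log2 difference was 0.25 ± 0.09 (SE, limma adjusted p = 0.0357). The call ended in 7 of the 8 fits that left out 1 array, with limma adjusted p of up to 0.0995, with the replicate number as a block (0.0866) and with a prior variance of their own for the unnamed rows (0.189). The difference was 1.12 with quantile normalization and 1.40 with cyclic loess, and turned to -0.34 when arrays were centred on the receptor rows.

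Row 4985655 doubled Lamtor5, which encodes a subunit of the lysosomal Ragulator complex that serves mTORC1 signalling. Its levels were 8.94, 8.41, 8.76 and 8.09 in exosomes, against 10.68, 10.64, 10.49 and 10.82 in cells. It fell by 2.11 on the log2 scale (SE 0.18, limma adjusted p = 9.54e-06). The difference was -1.06 with quantile normalization, -0.78 with cyclic loess and -2.70 with centring on the receptor rows. Row 4988895 doubled Hp1bp3, which encodes a histone H1-related protein of heterochromatin. Its levels were 8.75, 7.74, 8.95 and 8.77 in exosomes, against 10.75, 10.56, 10.67 and 10.52 in cells. The second exosome array lay lowest, and the groups did not overlap. It fell by 2.07 (SE 0.25, limma adjusted p = 9.00e-05). The difference was -1.02 with quantile normalization, -0.74 with cyclic loess and -2.66 with centring on the receptor rows. The other 6574 rows had values of their own.

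Most low-numbered unnamed rows were dim, and a smaller part was among the brightest signals of the array. Their median level was 4.66, 4.59, 4.66 and 4.65 on the exosome arrays, against 4.62, 4.50, 4.57 and 4.50 on the cell arrays. These medians overlapped between the groups. For rows with 1 gene symbol the median was 6.02 ± 0.02 in exosomes and 6.97 ± 0.06 in cells (SD, n = 4 each), with all 4 exosome arrays below all 4 cell arrays. A rank within the array does not depend on its scaling. By that measure the median low-numbered unnamed row stood at percentile 27.9 ± 0.3 in exosomes and 27.6 ± 0.8 in cells, while the median row with 1 symbol stood at 56.3 ± 0.1 in exosomes and 59.2 ± 0.1 in cells.

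**Figure D1:**
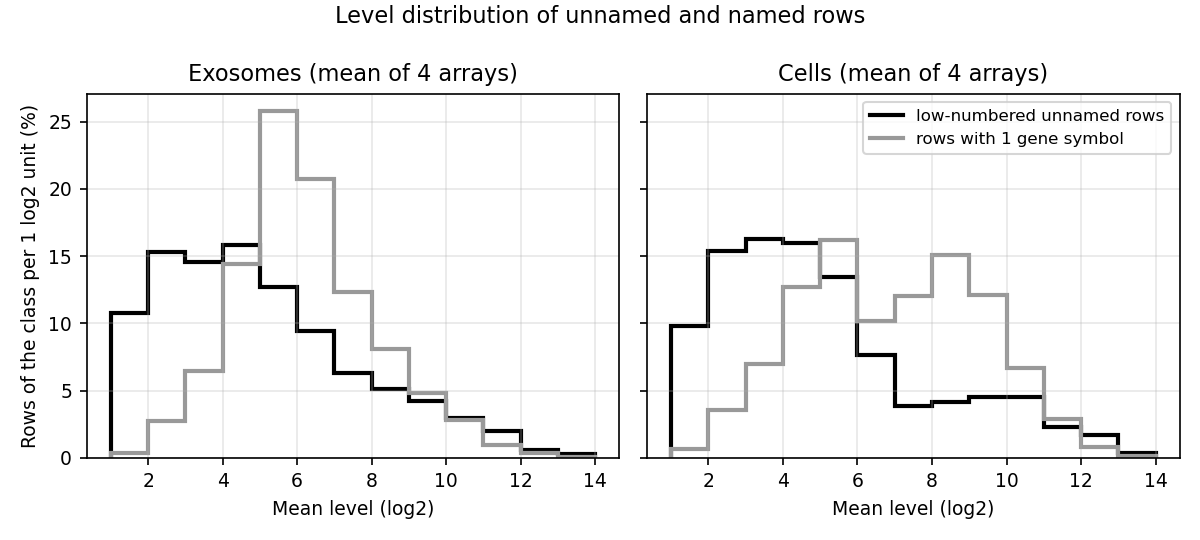
Share of rows (y axis, percent of the class) in each unit of mean log2 level (x axis) in exosomes (left) and in cells (right), for low-numbered unnamed rows (black) and rows with 1 gene symbol (grey). In cells the unnamed rows form a broad dim part below about 6 and a low, flat shoulder at 8 to 11, where the named rows have their second peak.

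The upper part of the distribution differed between the groups in 2 ways. The 75th percentile was slightly higher in exosomes, at 6.66 ± 0.01 against 6.49 ± 0.03 in cells (SD, n = 4 each), while the 90th was lower, at 9.03 ± 0.07 against 9.74 ± 0.05. At each of these percentiles all 4 exosome arrays lay on 1 side of all 4 cell arrays. Over all rows the 75th percentile was 7.13 ± 0.06 in exosomes against 8.53 ± 0.06 in cells. The 90th was 8.85 ± 0.09 against 9.98 ± 0.04. The lower 90th percentile in exosomes was thus shared by the whole table, and the higher 75th was not. These levels are those of the deposited values, in which the receptor rows also had a higher median in exosomes, at 4.21 against 3.61. In exosomes 620, 415 and 335 of the unnamed rows had mean levels of 6 to 7, 7 to 8 and 8 to 9. In cells the same ranges held 505, 254 and 273 rows. From 9 to 10 on the exosome counts were the smaller ones, with 278 rows in exosomes and 296 in cells at 9 to 10, 197 rows in exosomes and 299 in cells at 10 to 11, and 40 rows in exosomes and 112 in cells at 12 to 13.

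The unnamed rows were 28.2% of the table but a larger share of its brightest rows. Of the 100 brightest rows of an array, they made up 50, 47, 48 and 47% on the exosome arrays, against 46, 49, 46 and 50% on the cell arrays, with no gap between the groups. Of the 1000 brightest, they were 37.4 ± 0.4% in exosomes and 30.9 ± 0.2% in cells (SD, n = 4 each). Here the exosome arrays, at 36.9 to 37.8%, all lay above the cell arrays, at 30.7 to 31.0%. Mean levels of 13 or more were found for 19 unnamed rows and 9 rows with 1 symbol in exosomes, and for 25 unnamed rows and 24 rows with 1 symbol in cells.

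The brightest unnamed rows were mostly not the same in exosomes and cells. Among the 100 rows with the highest group means, 49 in exosomes and 48 in cells were low-numbered unnamed rows, and 11 were in both lists, which is 22.4% of the exosome list and 22.9% of the cell list. For the remaining rows of these lists, 18 were shared, or 35.3% of 51 in exosomes and 34.6% of 52 in cells.

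A minority of the unnamed rows was above background, among them a set that was so in exosomes but not on all cell arrays. In exosomes 1463 of 6577 (22.2%) were above background, and in cells 1856 (28.2%). For rows with 1 symbol the counts were 5230 of 14996 (34.9%) in exosomes and 9232 (61.6%) in cells, with the 843 receptor rows included. Both groups shared 1325 unnamed rows, which is 90.6% of the exosome set and 71.4% of the cell set. For rows with 1 symbol, 5210 were shared, which is 99.6% of the exosome set and 56.4% of the cell set.

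Above background in exosomes but not on all cell arrays were 138 unnamed rows (2.10%), against 20 rows with 1 symbol (0.133%) and 1 of the 740 other unnamed rows (0.135%). Of the 138 rows, 44 were above background on none of the cell arrays, beside 3 of the 20 rows with 1 symbol. Mean levels of the 138 unnamed rows ran from 6.62 to 11.5 in exosomes (median 7.59) and from 3.08 to 6.51 in cells (median 5.61). These rows had to be higher in exosomes to enter the set, so their differences say nothing further. In the opposite set, 531 unnamed rows (8.07%) were above background in cells but not on all exosome arrays, and 239 of them on no exosome array. For rows with 1 symbol this set held 4022 rows (26.8%), with 2816 of them on no exosome array. The threshold was higher in exosomes, and 18 of the 531 rows were called higher there, beside 84 of the 4022. Neither group was above background for 4583 rows (69.7%), beside 38.3% of the rows with 1 symbol.

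**Figure D2:**
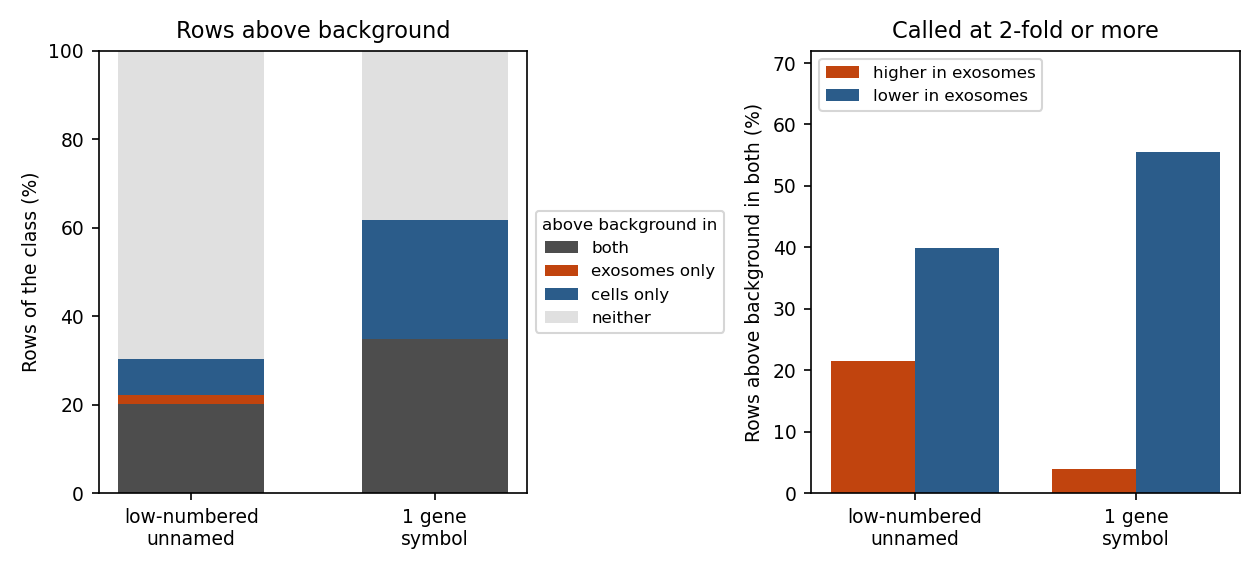
Left, percent of rows above background in both groups, in exosomes only, in cells only or in neither, for low-numbered unnamed rows and for rows with 1 gene symbol. Here "only" means not above background on all 4 arrays of the other group. Right, of the rows above background in both groups, the percent called at least 2-fold higher (orange) or lower (blue) in exosomes; rises make up 21.5% of the unnamed and 3.88% of the named rows.

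The comparison of exosomes with cells asked which of these signals differed between vesicles and the cells that released them. All 6577 rows were part of the limma fit, with no filter on low values. At a Benjamini-Hochberg adjusted p below 0.05, 2834 low-numbered unnamed rows were called, which is 43.1%, against a background of 59.3% over all rows. They split into 1314 called higher and 1520 called lower in exosomes. Rows above background in neither group made up 700 of the higher and 451 of the lower calls. For rows with 1 symbol they made up 1493 of the 2191 higher and 421 of the 7789 lower calls. The higher calls were 1314 of 6577 unnamed rows, beside 16.4% of all rows and 14.6% of rows with 1 symbol. The lower calls were 23.1%, beside 42.9% of all rows and 51.9% of rows with 1 symbol. Their median log2 difference was -0.01, beside -0.20 over all rows and -0.38 for rows with 1 symbol.

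At 2-fold or more, 795 unnamed rows were called higher (12.1%) and 1111 lower (16.9%). Over all rows the shares were 5.43% higher and 31.1% lower, and for rows with 1 symbol 2.60% higher and 37.7% lower. The 795 were thus 795 of the 1268 rises of this size in the whole table. For 377 of the 795 rises and 274 of the 1111 falls the row was above background in neither group, so that no fold can be given for them. For rows with 1 symbol this held for 172 of 390 rises and 101 of 5654 falls. The groups did not overlap for 2380 unnamed rows (36.2%), beside 56.4% of all rows.

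The direction of these calls depended on how the arrays were scaled, and the order between unnamed and named rows did not. Higher calls were 46.4% of the unnamed rows' calls in the deposited values, 58.8% with quantile normalization, 59.6% with cyclic loess and 16.8% with each array centred on its receptor rows. For rows with 1 symbol they were 22.0, 47.5, 48.6 and 2.92% under the same scalings. The median difference of all rows moved with the scaling, to 0.05, 0.03 and -0.79. Of the 795 rises of at least 2-fold, 603 were called higher under all 4 scalings, and of the 1111 falls, 862 were called lower under all of them. Under the other scalings this needed the same direction and an adjusted p below 0.05, not 2-fold. No such count was made for the named rows, so it does not set the classes apart.

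Among rows above background in both groups, rises made up a larger share of the unnamed rows than of the named ones. Of these 1325 unnamed rows, 285 (21.5%) were called at least 2-fold higher in exosomes and 528 (39.8%) at least 2-fold lower. Of the 5210 rows with 1 symbol, 202 (3.88%) were called higher and 2891 (55.5%) lower at this size. The 192 other unnamed rows stood near the named ones, with 4.69% higher and 55.2% lower. The median log2 difference was -0.54 for the unnamed rows and -1.16 for those with 1 symbol. The quartiles of the differences reached from -1.58 to 0.85 for the unnamed rows and from -1.85 to -0.34 for those with 1 symbol. The difference between the classes was not tested, since rows are not replicates. The comparison was added after the data had been seen.

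The higher share of rises stood under each scaling tried, and the share of falls did not keep its order. Rises of at least 2-fold were 42.5% of unnamed and 20.7% of named rows above background in both groups with quantile normalization, 45.4 and 24.2% with cyclic loess, and 12.3 and 2.00% with arrays centred on receptor rows. Falls were 15.6% in both classes with quantile normalization, 10.6% of unnamed and 10.5% of named rows with cyclic loess, and 51.9 and 73.2% with centring. Of the 285 rises, 278 were called higher under all scalings, and of the 528 falls, 340 were called lower under all of them. These, too, were counted by direction and adjusted p, and not for the named rows.

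The gap between the classes in the share of rises was widest at middle levels and did not show at 12 to 13. At a mean level over all arrays of 7 to 8, 113 of 381 unnamed rows (29.7%) were called at least 2-fold higher, beside 0.858% of 2448 rows with 1 symbol. The median log2 difference there was 0.16 for the unnamed rows, with quartiles of -1.74 and 1.23, and -1.61 for the named rows, with quartiles of -2.23 and -0.92. At 9 to 10 the shares were 17.9 and 6.08%, at 10 to 11 they were 16.7 and 7.85%, and at 11 to 12 they were 16.2 and 10.05%. At 12 to 13 they were 11.9% of 59 unnamed rows and 12.8% of 47 named rows. The median differences at 10 to 11 were -1.01 for unnamed and -1.05 for named rows.

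**Figure D3:**
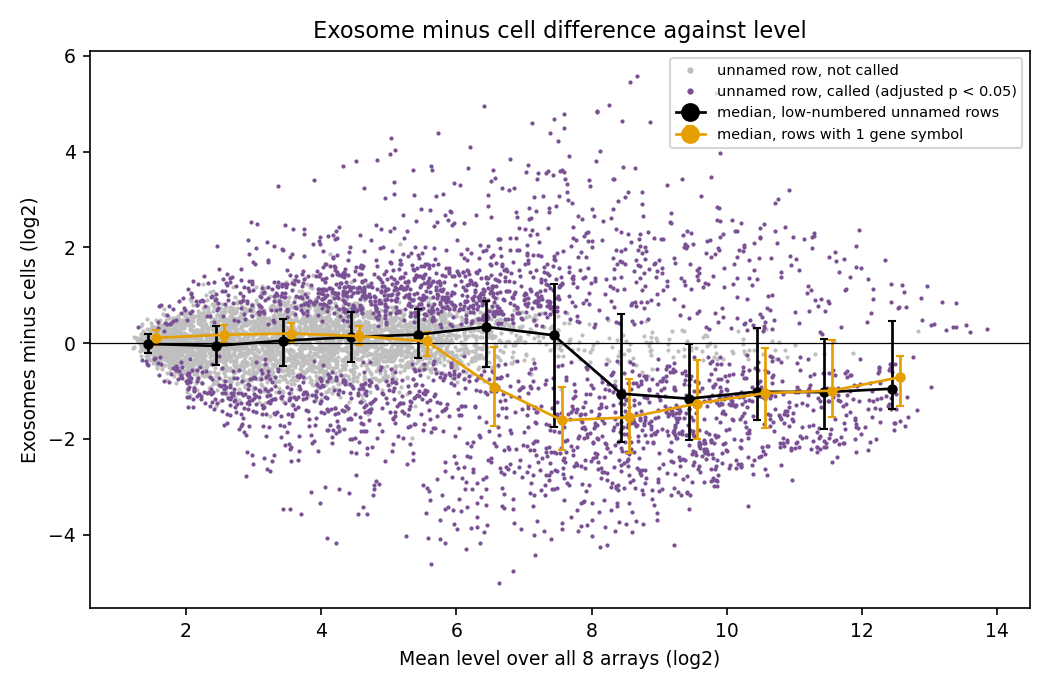
Log2 difference, exosomes minus cells (y axis), against the mean log2 level over all 8 arrays (x axis) for each low-numbered unnamed row, with called rows in purple. Circles with bars give medians and quartiles per unit of level for these rows (black) and for rows with 1 gene symbol (orange); the named median is -0.92 at a level of 6 to 7, where that of the unnamed rows is 0.34, and the unnamed median reaches -1.06 at 8 to 9.

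Large differences went both ways in the unnamed rows. A log2 difference of 4 or more was found for 20 unnamed rows and 1 row with 1 symbol, and a difference of -4 or less for 18 unnamed rows and 31 rows with 1 symbol. The largest rise was that of row 4562138, with levels of 11.46, 11.48, 11.35 and 11.57 in exosomes, against 6.57, 5.83, 5.40 and 5.74 in cells. The groups lay far apart, and 2 of the 4 cell arrays were above background. The log2 difference was 5.58 ± 0.22 (SE, limma adjusted p = 1.04e-07), and between 4.99 with centring on the receptor rows and 7.03 with cyclic loess. No fold is given, since the row was not above background in cells by the rule used. Row 4418194 had 11.36, 11.11, 11.39 and 11.33 in exosomes, against 6.09, 5.57, 6.11 and 5.58 in cells. Its log2 difference was 5.46 ± 0.15 (SE, limma adjusted p = 3.40e-08), again with 2 cell arrays above background, and lay between 4.87 with centring and 6.92 with cyclic loess.

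The largest falls ended below background in exosomes. Row 4630366 had levels of 4.95, 3.61, 4.41 and 3.54 in exosomes, against 9.08, 9.27, 9.03 and 9.13 in cells. It was above background on 0 exosome arrays, so its fold is a bound of at least 6.21-fold lower, with a fitted log2 difference of -5.00 ± 0.30 (SE, limma adjusted p = 9.04e-07). Row 5605777 had 5.03, 4.06, 4.42 and 4.35 in exosomes, against 9.51, 9.12, 9.22 and 9.00 in cells, and was at least 6.59-fold lower (-4.75 ± 0.21, limma adjusted p = 1.52e-07). In both rows the exosome values scattered more than the cell values. The bound compares the cell mean with the exosome arrays' background thresholds. Under the other scalings the fitted log2 differences lay between -5.59 and -4.09 for row 4630366 and between -5.34 and -3.70 for row 5605777.

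At the other end, some rows above background in both groups had alike levels as deposited. Row 4452866 had 7.67, 7.71, 7.48 and 7.80 in exosomes, against 7.70, 7.59, 7.69 and 7.70 in cells, with overlapping groups (log2 difference -0.00266 ± 0.085 SE, limma adjusted p = 0.981). Row 4468560 had 9.65, 10.08, 9.72 and 9.53 in exosomes, against 9.69, 9.71, 9.75 and 9.82 in cells (0.00426 ± 0.12, limma adjusted p = 0.979). Both were called higher after quantile normalization and cyclic loess, by 1.05 to 1.42, and were called lower, at -0.60 and -0.59, after centring on the receptor rows.

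**Figure D4:**
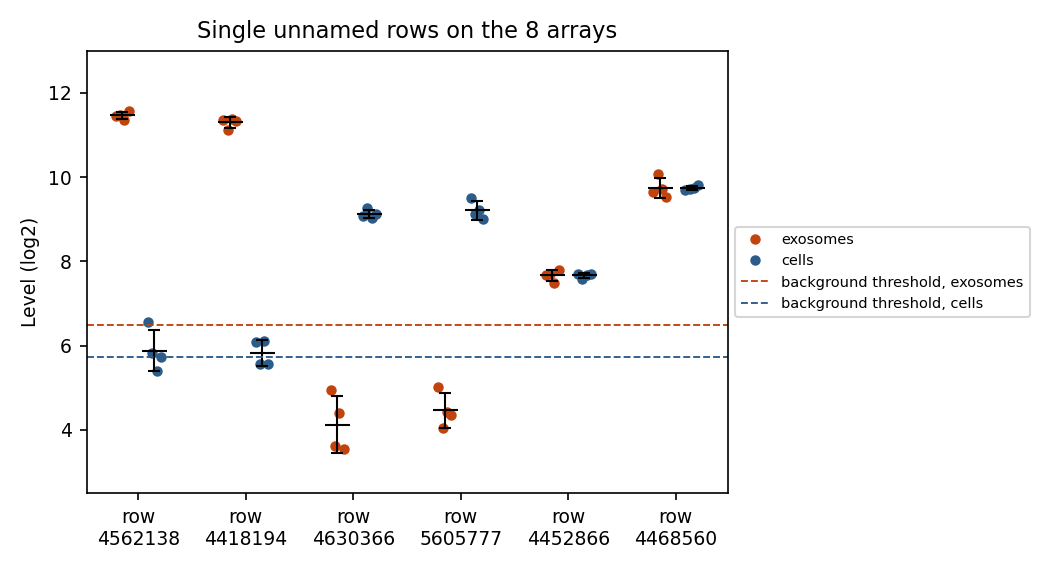
Log2 level (y axis) of 6 low-numbered unnamed rows (x axis) on the 4 exosome arrays (orange, left of each pair) and the 4 cell arrays (blue, right), with the mean and SD as black bars and the background threshold of each group as a dashed line. The first pair of rows is high in exosomes, the next pair is below the exosome threshold on all exosome arrays, and the last pair overlaps.

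On the 2 sides of the number limit, row 5617578 was the highest number among the members, with levels of 4.26, 4.81, 3.79 and 5.44 in exosomes, against 4.62, 1.99, 4.14 and 4.09 in cells. Row 6748888 was the lowest unnamed number above the limit, with 4.76, 4.33, 4.35 and 4.19 in exosomes, against 3.88, 4.03, 3.95 and 3.98 in cells. Both rows were above background on 0 arrays. The member scattered more, with an SD of 0.71 in exosomes and 1.17 in cells, against 0.25 in exosomes and 0.06 in cells for the other row.

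The 4 arrays of a group scattered more in the unnamed rows than in the named ones. The median SD over the 4 arrays was 0.40 in exosomes and 0.33 in cells, beside 0.15 in exosomes and 0.11 in cells for rows with 1 symbol, and 0.17 in exosomes and 0.12 in cells for the other unnamed rows. An SD above 1 was found for 223 unnamed rows (3.39%) in exosomes and 133 (2.02%) in cells, beside 30 of 14996 in exosomes and 9 of 14996 in cells for rows with 1 symbol. The classes differ in level, so the spread was also read at like levels. At a mean of 4 to 5 the median SD was 0.51 for unnamed and 0.18 for named rows in exosomes, and 0.44 and 0.14 in cells. At 9 to 10 it was 0.20 and 0.10 in exosomes, and 0.14 and 0.08 in cells. At 12 to 13 it was 0.07 and 0.05 in exosomes, and 0.08 and 0.07 in cells. The table does not say how many probes stand behind a row.

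**Figure D5:**
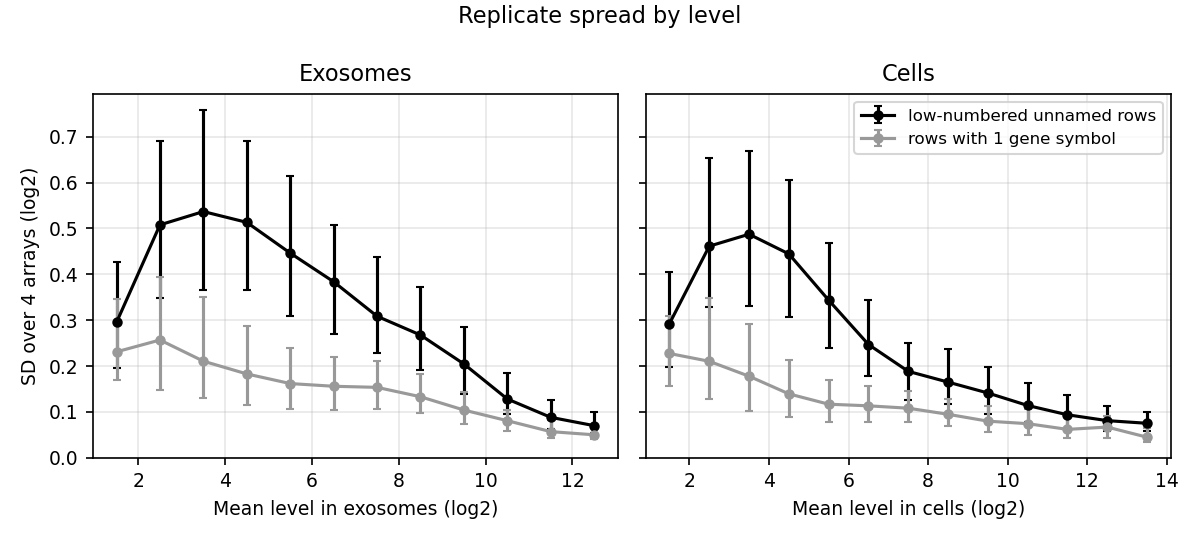
Median SD over 4 arrays (y axis, log2, bars for quartiles) per unit of mean log2 level (x axis) in exosomes (left) and cells (right), for low-numbered unnamed rows (black) and rows with 1 gene symbol (grey). The unnamed rows lie above the named ones at each level, with the widest gap at 3 to 5.

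The spread set how large a difference had to be for a call. The standard error of the log2 difference had a median of 0.25 for unnamed rows and 0.10 for rows with 1 symbol. Of 1993 unnamed rows whose difference was at least 2-fold in size, 87 (4.37%) were not called, beside 9 of 6053 rows with 1 symbol (0.149%). The share called rose with level, from 7.22% at a mean of 1 to 2 to 62.3% at 6 to 7 and 98.3% at 12 to 13. For rows with 1 symbol it was 7.94% at 1 to 2, 76.3% at 6 to 7 and 95.7% at 12 to 13. Across the 6577 rows, single arrays correlated with r of 0.961 to 0.965 within exosomes, 0.971 to 0.979 within cells and 0.872 to 0.895 between the groups. For rows with 1 symbol the ranges were 0.984 to 0.987, 0.994 to 0.996 and 0.865 to 0.888. These are correlations across rows, which are not independent replicates.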

How the data were processed

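The deposited log2 values of 8 arrays were used, 4 of exosomes and 4 of cells. Per the submitters' processing notes, the authors made these log2 values with Affymetrix Expression Console and RMA, which corrects background, normalizes and summarizes probes, with the genome build mm8, all without versions. The series text adds that core probesets of a gene were averaged by the authors. Array quartiles differed between the groups, so the scale is that of the deposited values. No depth exists for arrays.

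Rows were sorted into classes by number and by the platform table. Groups were compared over all 23332 rows with limma 3.58.1 (R 4.3.3; lmFit, eBayes, two-sided, Benjamini-Hochberg adjustment over all rows, calls at an adjusted p below 0.05, no filter, no block). The steps were checked on simulated data. Counts over the unnamed rows are descriptions, with no test of the class. The counts of 2-fold calls among rows above background in both groups were added after the data had been seen. Single rows were named by a rule: the 2 largest rises and falls that were called, did not overlap and were above background in the higher group, the 2 smallest differences among rows above background on all arrays, and the rows beside the number limit. The 3 rows with doubles are an exception. The class, the rule and the background genes were chosen with earlier results of these data known. Alternatives were other scalings, a filter, other priors, array weights, a block, a stricter threshold, changed background rules and fits without 1 array. Figures were drawn with matplotlib 3.10.9.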

Additional observations from a re-analysis of the deposited data

Results flagged for a closer look

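The 25th percentile of the low-numbered unnamed rows was 2.87 on the second exosome array, against 2.92, 2.92 and 2.93 on the other exosome arrays, a gap wide for this group of 4. It was the only one of 26 groups of 4 arrays tested to stand out in this way, and chance gives about 1 in 20.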

How the results depend on the processing

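Of the recomputed summary values, 120 stayed within a set limit and 29 did not. The limit was 1.5 times the reported count, or, for the median difference, the spread between arrays. For a median SD it was the SD of the medians found when leaving out 1 array. By that narrow limit, each median SD found without 1 array counted as moved. After quantile normalization, 1212 unnamed rows were called higher and 719 lower at 2-fold or more, the median difference was 0.091 and the median SD 0.42 in exosomes and 0.31 in cells. Of rows above background in both groups, a set added after seeing the data, 563 were then higher and 207 lower. After cyclic loess, 1175 were higher and 680 lower at 2-fold or more, against 795 and 1111 as deposited, the median was 0.066, and 601 were higher and 141 lower among rows above background in both groups. After centring on receptor rows, 623 were called higher and 3084 lower, 358 and 2025 at 2-fold or more, the median was -0.60, and 163 of those above background in both groups were higher. Over all rows, quantile normalization gave 2783 higher and 3448 lower at 2-fold or more, against 1268 and 7255 as deposited. Cyclic loess gave 2833 and 2915, and centring 525 and 10110. The direction of the calls thus moved with the scaling in the whole table. With only rows above background in a group, 1742 were called, 645 higher and 418 at 2-fold or more, with a median of -0.63. That filter leaves out the rows above background in neither group, of which 700 were called higher and 451 lower without it. Leaving out 1 array gave 2618 to 2755 calls, a median difference of -0.02 to 0.01 and a median SD, over 3 arrays, of 0.360 to 0.369 in exosomes and 0.279 to 0.311 in cells. Row 4452866 turned to 1.27 after quantile normalization and 1.42 after cyclic loess, row 4468560 to -0.59 and row 4504661 to -0.34 after centring; the cause was not tested. The largest rises and falls kept their calls under each alternative. Deviations from the group mean were hardly correlated between same-numbered samples (-0.055 to 0.0013). Such values cannot show whether a shared number marks a shared culture. With the replicate number as a block 2836 rows were called, 1312 higher and 1524 lower. A prior variance of their own for the unnamed rows gave 2653 calls, 1219 higher and 1434 lower. A 99th percentile for background left 1111 rows in exosomes and 1498 in cells. Signal close to background limits what can be said of 4583 rows.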

Other observations

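The row number itself carried no visible order of values. Neighbouring low-numbered unnamed rows were a median of 142 apart, from 1 to 1734, and 32 pairs had consecutive numbers. Across 6576 neighbouring pairs the mean levels correlated with r = 0.0097 and the log2 differences with r = -0.0066. For the 617 pairs at most 20 apart the values were -0.027 and 0.0049. These are descriptions across rows that share their arrays. When the rows were cut into 10 blocks by number, each of 657 or 658 rows, 19.1 to 25.2% of a block were above background in exosomes and 26.0 to 31.5% in cells. The share called at least 2-fold higher in exosomes was 10.7 to 15.2% of a block, and the median log2 difference lay between -0.04 and 0.04.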
